A study of Mus musculus with 18 samples.

Results

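The troponin genes *Tnnc1*, *Tnnc2*, *Tnni1*, *Tnni2*, *Tnnt1*, *Tnnt2* and *Tnnt3* were followed by their mRNA levels through the differentiation of mouse myoblasts with and without LAP2α. They were taken from the expression tables by gene symbol, and all 7 were found among the 19153 genes listed. All 7 also passed the filter on low counts, which left 17672 genes, but *Tnnc2* and *Tnni2* passed it through the day 2 libraries only, as did 1177 of all tested genes.

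The cells were immortalized myoblasts from a p53 knockout mouse, so the wildtype (WT) controls lacked p53 as well. LAP2α knockout (KO) cells had been made in them with CRISPR-Cas9 and a guide RNA against LAP2α, whereas WT cells had received the empty vector, and both were sorted in bulk for the fluorescent vector and were not single clones. RNA was sequenced from proliferating cells (Prol) and from cells that had just reached confluence (D0), both in 20% serum. Cells were also taken after 48 hours in 5% serum (D2), and each of the 6 groups had 3 libraries. The labels number the replicates and do not say whether they are separate cultures, so the p-values measure the spread between these libraries.

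Library totals were 26437823 to 41619015 expected counts. Levels are given as CPM, the counts of a gene relative to the scaled library total, scaled by the authors with TMM factors. *Tmpo*, the gene that encodes LAP2α beside other LAP2 proteins, was at 275 to 315 CPM in WT Prol and 228 to 260 CPM in KO Prol, a sum over its isoforms that does not check the loss of LAP2α. The libraries numbered 1 stood apart on day 2, with TMM factors of 0.909 in WT and 0.931 in KO against 1.11 to 1.18 in the other 4 libraries. Of the skeletal muscle markers, 7 of 8 were listed, and their summed level was 32.3 to 64.1 CPM before day 2, 1657 to 3149 CPM in WT D2 and 1031 to 1191 CPM in KO D2. *Pax7* was the marker not in the tables.

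Troponin is the calcium switch of striated muscle and sits on the thin filament of actin and tropomyosin. Troponin C binds calcium, troponin I holds back the interaction of actin with myosin, and troponin T anchors the complex to tropomyosin. Each subunit has several genes. *Tnnc2*, *Tnni2* and *Tnnt3* encode the forms of fast skeletal fibres and *Tnni1* and *Tnnt1* those of slow skeletal fibres, whereas *Tnnc1* is shared by slow skeletal muscle and the heart. *Tnnt2* encodes the troponin T of the adult heart and is also used by embryonic skeletal muscle, and *Tnni3* encodes the troponin I of the adult heart.

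Most of the troponin T and I genes lie in pairs on GRCm38 (GENCODE M21). *Tnni1* (chr1:135779434-135810989) and *Tnnt2* (chr1:135836354-135852260) lie 25364 bases apart on the plus strand, and *Tnni2* (chr7:142441808-142444410) and *Tnnt3* (chr7:142498836-142516009) lie 54425 bases apart on the plus strand. *Tnnt1* (chr7:4504570-4516382) lies 1922 bases from *Tnni3* (chr7:4518305-4524229), both on the minus strand. *Tnnc1* (chr14:31208312-31211729) and *Tnnc2* (chr2:164777161-164779967) lie alone. The reads were 50 bases long, and of all 50-base stretches in the annotated transcripts of each gene, 0% to 0.827% also occurred in a transcript of another gene.

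The 250 bases before the start site are shown for the 5 genes with an entry in the RefSeq promoter table (GRCm38.p6), because these genes rose together and the windows allow their motifs to be compared. The windows are chr14:31208062-31208311 (plus strand) for *Tnnc1*, chr2:164779735-164779984 (minus strand) for *Tnnc2*, chr1:135799171-135799420 (plus strand) for *Tnni1*, chr7:4515976-4516225 (minus strand) for *Tnnt1* and chr1:135836084-135836333 (plus strand) for *Tnnt2*. *Tnni1* and *Tnnt2* have 2 start sites each in the table and the first is shown. The windows of *Tnni1* and *Tnnt1* lie within the gene spans given above, and that of *Tnnc2* lies partly within its span. Below, before a gene therefore means before the start site shown, not before the whole gene. Each window is written 5′ to 3′ on the strand of its gene, and capitals mark E-boxes (CANNTG), the MCAT letters CATTCC or their complement, and TATAAA, with no overlap between them.
Tnnc1: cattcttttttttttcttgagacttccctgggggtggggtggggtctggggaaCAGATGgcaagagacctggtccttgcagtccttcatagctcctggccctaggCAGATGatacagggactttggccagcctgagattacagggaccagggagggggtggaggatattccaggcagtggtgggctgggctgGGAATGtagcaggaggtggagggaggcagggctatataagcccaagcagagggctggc
Tnnc2: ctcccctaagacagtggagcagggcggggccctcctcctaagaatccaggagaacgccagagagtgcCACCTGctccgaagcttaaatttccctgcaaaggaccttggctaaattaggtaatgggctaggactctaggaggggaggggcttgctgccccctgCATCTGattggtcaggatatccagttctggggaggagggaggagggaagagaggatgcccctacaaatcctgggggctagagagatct
Tnni1: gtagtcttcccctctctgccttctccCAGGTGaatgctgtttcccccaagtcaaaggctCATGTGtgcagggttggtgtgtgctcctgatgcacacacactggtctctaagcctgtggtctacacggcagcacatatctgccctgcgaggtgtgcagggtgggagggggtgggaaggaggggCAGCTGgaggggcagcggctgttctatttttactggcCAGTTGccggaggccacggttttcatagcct
Tnnt1: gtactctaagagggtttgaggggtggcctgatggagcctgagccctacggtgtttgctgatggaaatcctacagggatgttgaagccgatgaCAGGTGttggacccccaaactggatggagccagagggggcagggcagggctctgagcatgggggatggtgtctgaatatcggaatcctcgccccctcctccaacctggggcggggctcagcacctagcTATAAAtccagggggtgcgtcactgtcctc
Tnnt2: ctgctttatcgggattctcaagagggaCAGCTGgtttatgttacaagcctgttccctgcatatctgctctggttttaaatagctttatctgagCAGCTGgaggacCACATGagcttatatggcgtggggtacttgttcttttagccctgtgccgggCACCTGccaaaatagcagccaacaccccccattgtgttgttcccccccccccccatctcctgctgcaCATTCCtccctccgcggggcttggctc
An E-box, the kind of site that MyoD and myogenin bind, was present in all 5 windows, but also in 66.2% of all 32851 promoter windows of this length. The letters CAGCTG within an E-box were found before *Tnni1* and *Tnnt2* (13.0% of all windows), and CAGGTG or its complement before *Tnnc2*, *Tnni1*, *Tnnt1* and *Tnnt2* (17.2% of all windows). CATTCC, the core of the MCAT element bound by TEAD factors, stood before *Tnnc1* and *Tnnt2* on either strand (12.6% of all windows), and TATAAA stood before *Tnnt1* (12.4% of all windows). The MEF2 and CArG motifs were in 2.92% and 1.47% of all windows and in none of the 5. These matches describe the letters and were not tested as binding sites.

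All 7 troponin genes rose between proliferation and day 2, in both genotypes. In WT cells the fitted change ranged from 22.3-fold for *Tnnt2* to 925-fold for *Tnnc2*, and in KO cells from 11.6-fold for *Tnnt2* to 628-fold for *Tnnc2*. Each gene met the criteria for a call, which were an unadjusted p under 0.05, a change of over 1.5-fold and a level that reached 10 CPM in 1 or more of the libraries compared. Of all tested genes, 10.8% met them as higher in WT and 11.3% in KO. The day 2 and Prol libraries of the 7 genes did not overlap, as for 23% of all tested genes in WT and 25.1% in KO that were higher. The adjusted p-values of limma with Benjamini-Hochberg adjustment over all tested genes were at most 6.85e-06 in WT and 6.44e-05 in KO. *Tnnc2* and *Tnni2* passed the filter on low counts through the day 2 libraries only. The filter itself thus favoured a rise for them, and their calls and non-overlap add little to those of the other genes. In bulk RNA, more differentiated cells and more RNA per cell cannot be told apart.

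**Figure D1:**
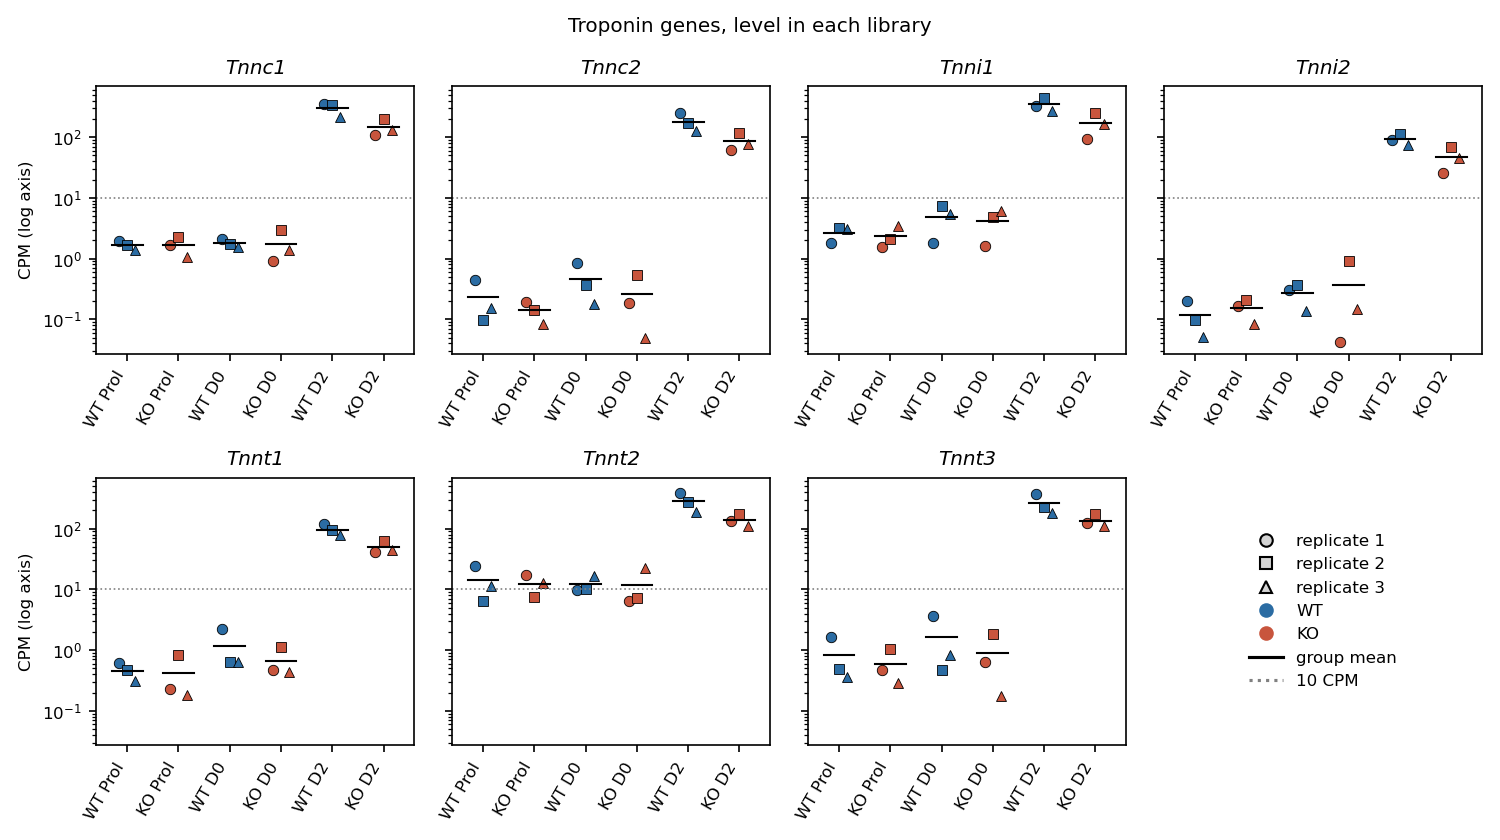
Level of each troponin gene in CPM (log axis) in the 18 libraries, by group, with a marker for each replicate and a line at the group mean. The 6 day 2 libraries lie at 25.6 CPM or higher for every gene, whereas *Tnnt2* is the gene that exceeds 10 CPM (dotted line) before day 2.

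Troponin C was carried by *Tnnc1* and, from day 2, by *Tnnc2* as well. *Tnnc1* was at 1.91, 1.65 and 1.41 CPM in WT Prol and at 349, 342 and 211 CPM in WT D2. In KO cells it was at 1.69, 2.31 and 1.07 CPM in Prol and at 108, 202 and 131 CPM in D2. The day 2 libraries lay far above all Prol libraries, and the log2 change was 7.48 (SE 0.39) in WT and 6.46 (SE 0.39) in KO. *Tnnc2*, the fast form, was near the detection limit in most Prol libraries. It was at 0.44, 0.10 and 0.15 CPM in WT and 0.19, 0.14 and 0.08 CPM in KO, or 2 to 16 expected counts a library. On day 2 it reached 248, 169 and 125 CPM in WT and 61.5, 118 and 78.4 CPM in KO. The groups did not overlap, and the log2 change of 9.85 (SE 0.76) in WT and 9.29 (SE 0.76) in KO rests on these few counts in Prol.

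Troponin I showed the same order of its slow and fast genes. *Tnni1*, the slow form, was at 1.78, 3.18 and 3.06 CPM in WT Prol and at 330, 438 and 272 CPM in WT D2. In KO it was at 1.57, 2.12 and 3.38 CPM in Prol and at 94.5, 246 and 163 CPM in D2. Its log2 change was 7.04 (SE 0.54) in WT and 6.12 (SE 0.54) in KO. The fast form *Tnni2* was again near the detection limit in Prol (0.20, 0.10 and 0.05 CPM in WT and 0.16, 0.20 and 0.08 CPM in KO). On day 2 it was at 88.1, 112 and 75.0 CPM in WT and at 25.6, 69.4 and 46.2 CPM in KO, above every Prol library, with a log2 change of 9.82 (SE 0.83) in WT and 8.27 (SE 0.83) in KO. *Tnni3*, the cardiac gene, was at 0.11 to 0.69 CPM before day 2 and at 0.34 to 2.10 CPM on day 2. Part of it overlaps *Dnaaf3* on the same strand, and its values are therefore uncertain.

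Among the troponin T genes, *Tnnt2* was the one detected at more than 10 CPM before differentiation. It was at 24.2, 6.55 and 11.3 CPM in WT Prol and at 16.98, 7.37 and 12.8 CPM in KO Prol. On day 2 it was at 383, 272 and 191 CPM in WT and at 133, 173 and 110 CPM in KO. Its log2 change of 4.48 (SE 0.50) in WT and 3.54 (SE 0.50) in KO was the smallest of the 7 genes in both genotypes. *Tnnt3*, the fast form, went from 1.65, 0.49 and 0.35 CPM in WT Prol to 373, 227 and 184 CPM in WT D2. In KO it went from 0.46, 1.05 and 0.28 CPM to 122, 175 and 110 CPM, close to the levels of *Tnnt2* in the same libraries. The log2 change of *Tnnt3* was 8.56 (SE 0.83) in WT and 8.003 (SE 0.83) in KO. *Tnnt1*, the slow form, went from 0.60, 0.46 and 0.31 CPM to 117, 93.6 and 78.2 CPM in WT and from 0.22, 0.84 and 0.18 CPM to 41.6, 63.6 and 44.5 CPM in KO. Its log2 change was 7.75 (SE 0.58) in WT and 7.23 (SE 0.58) in KO, and no day 2 library of either gene lay in the range of Prol.

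The size of the largest changes depends on the small value added to each count. With 1 CPM added before taking logarithms, all 7 genes still met the criteria, but the changes in WT were 20.5-fold for *Tnnt2*, 143-fold for *Tnnc2*, 82.1-fold for *Tnni2* and 143-fold for *Tnnt3*. The order of the genes by fold change is therefore not given as a result, apart from the place of *Tnnt2*, which stayed the smallest. Scaling by library totals alone moved the median log2 change of all tested genes in WT D2/Prol from -0.01 to 0.15, and the changes of the troponin genes, 4.64 to 10.015 under that scaling, are far larger than this shift.

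Against D0 instead of Prol, the change was similar. All 7 genes were again called higher on day 2, in WT with log2 changes of 4.52 (*Tnnt2*) to 8.85 (*Tnnc2*) and in KO with 3.76 (*Tnnt2*) to 8.94 (*Tnnc2*), where 10.4% and 10.5% of all tested genes were called higher. These comparisons share the day 2 libraries with those against Prol and are not a second measurement of day 2. Here too the filter favoured a rise of *Tnnc2* and *Tnni2*.

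**Figure D2:**
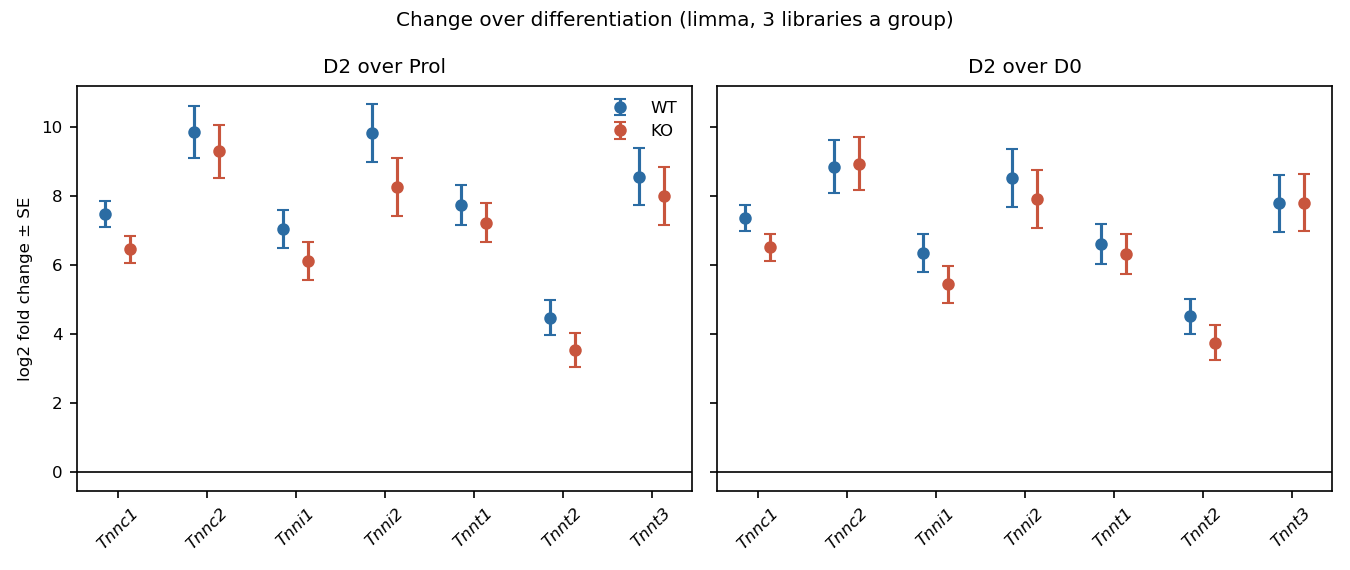
Log2 fold change of each troponin gene on day 2 over Prol (left) and over D0 (right) with its standard error from limma, in WT (blue) and KO (red), for 3 libraries a group. All values lie above 3.5, and *Tnnt2* has the smallest change in each panel and genotype.

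At confluence, 6 of the 7 genes could not be called, because *Tnnt2* alone reached 10 CPM before day 2. By limma, 0 of 7 genes were called for D0 against Prol in WT or KO (0.226% and 0.108% of all tested genes), and 0 of 7 had an unadjusted p under 0.05. Without the minimum of 10 CPM also 0 were called, where 1.80% and 1.07% of all tested genes were, and with voom weights the smallest unadjusted p was 0.0932 in WT and 0.192 in KO. *Tnnt1* had the smallest unadjusted p (limma, 0.0673 in WT), with a log2 change of 1.13 (SE 0.58). It was at 2.26, 0.64 and 0.63 CPM in WT D0, above all 3 WT Prol libraries, and such a non-overlap with D0 higher was found for 3.1% of all tested genes in WT. With the replicate number as a fixed block the smallest unadjusted p of limma was 0.0367 in WT, with an adjusted p of 0.721. *Tnni1* was at 1.84, 7.26 and 5.46 CPM in WT D0 and 1.58, 4.85 and 6.02 CPM in KO D0, so the libraries numbered 1 stayed in the range of Prol and the others lay above it. *Tnnt2* at D0 (9.78, 10.1 and 16.8 CPM in WT and 6.33, 7.29 and 22.1 CPM in KO) lay within its Prol range of 6.55 to 24.2 CPM apart from 1 library at 6.33 CPM. The 5 genes other than *Tnni1* and *Tnnt2* were at 0.04 to 3.66 CPM in the D0 libraries. Ranked by mean CPM, WT D2 came first and KO D2 second for all 7 genes. Among the 4 groups before day 2, groups next to each other in this order overlapped for every gene, whereas WT D0 and WT Prol of *Tnnt1*, which are not neighbours in it, did not.

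Before day 2 the replicates of the troponin genes also scattered more than those of most genes. The SD of log2 CPM between replicates had a median over the 7 genes of 0.948 in WT Prol and 0.620 in KO Prol, where the median over all tested genes was 0.277 and 0.258. On day 2 it was 0.409 in WT and 0.465 in KO, against 0.462 and 0.418 over all tested genes. In WT Prol *Tnnc2* was at 2 to 16 and *Tnni2* at 1 to 7 expected counts, where counting error adds to the spread. The SD was not compared with that of genes at a similar level.

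The isoform makeup of each subunit changed between Prol and day 2. Levels per kilobase of the median coding transcript were used for this, and the share of a gene was its level over the sum of the genes of its subunit among the 7, in the same library, so that *Tnni3* was left out of troponin I. In Prol, *Tnnt2* made up 89.9% ± 7.2 of troponin T (SD, n = 6 libraries of both genotypes), *Tnnt3* 5.70% ± 3.72 and *Tnnt1* 4.41% ± 3.61. On day 2, *Tnnt2* was at 40.7% ± 1.7, *Tnnt3* at 42.1% ± 1.6 and *Tnnt1* at 17.2% ± 1.6. The share of *Tnnt2* thus fell by 49.2 percentage points, while its own level rose. For troponin C, the fast form *Tnnc2* went from 9.84% ± 5.01 to 37.8% ± 2.8, and for troponin I, the fast form *Tnni2* went from 7.93% ± 5.23 to 27.4% ± 0.7. The slow or shared forms *Tnnc1* and *Tnni1* remained the larger part on day 2, with 62.2% ± 2.8 and 72.6% ± 0.7. For each of the 7 genes the exact permutation test within genotypes gave p = 0.005 for day 2 against Prol, two-sided, the smallest p this design allows (adjusted p = 0.0108 over 28 tests of shares, where the 2 genes of a pair give the same test). The tests of troponin C and I involve *Tnnc2* and *Tnni2*, which passed the filter on low counts through the day 2 libraries only. The shares themselves were computed without that filter. With *Tnni3* counted in troponin I, an alternative chosen after seeing the data, *Tnni3* made up 11.9% ± 3.3 of it in Prol (SD, n = 6), above *Tnni2* in 5 of 6 libraries, and 0.457% ± 0.241 on day 2. *Tnni2* then went from 6.96% ± 4.58 to 27.2% ± 0.7, and the fall of *Tnni1* shrank from 19.4 to 8.86 percentage points.

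Shares at D0 among the 7 genes lay between those of Prol and day 2 in the mean and varied widely. With *Tnni3* counted this did not hold for *Tnni1*, which was at 81.2% in Prol, 84.4% at D0 and 72.3% on day 2. *Tnnt2* made up 81.4% ± 14.3 of troponin T at D0 (SD, n = 6), from 59.5% to 96.9%, and *Tnnt3* 10.4% ± 9.2. The exact permutation test of D0 against Prol gave p-values of 0.16 to 0.73 for the 7 genes, so no change of share was detected at confluence. The same exact test of day 2 against D0 gave p = 0.005 for 6 genes and p = 0.01 for *Tnnt1*. With *Tnni3* counted, that of *Tnni1* gave p = 0.055 by the exact test. Shares in Prol and D0 rest on 1 to 35 expected counts for *Tnni2* and 1 to 26 for *Tnnc2* in each library, and counting error alone is large there.

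**Figure D3:**
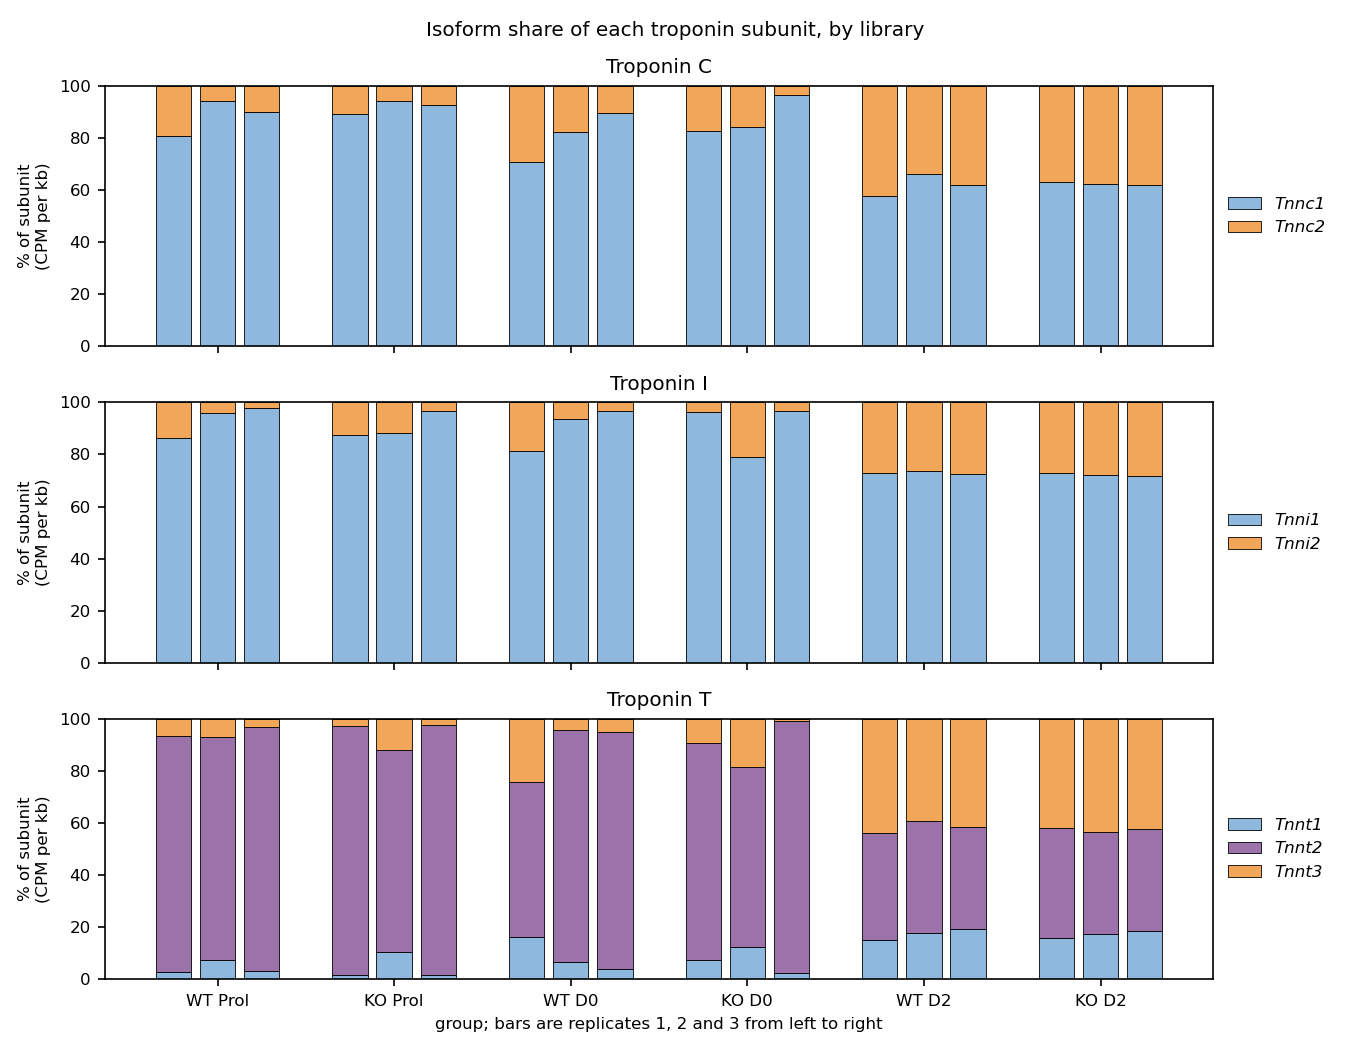
Share of each isoform gene in its troponin subunit (percent of summed CPM per kilobase) in each of the 18 libraries, with 3 bars a group for replicates 1 to 3. On day 2 the 6 bars of a subunit are alike, with *Tnni2* at 26.2% to 28.1%, *Tnnc2* at 33.7% to 42.3% and *Tnnt3* at 39.3% to 43.8%.

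On day 2 the makeup was close in both genotypes. *Tnni2* had 26.9% ± 0.7 of troponin I in WT and 27.8% ± 0.5 in KO (SD, n = 3), *Tnnc2* had 38.0% ± 4.3 of troponin C in WT and 37.6% ± 0.6 in KO, and *Tnnt3* had 41.5% ± 2.3 of troponin T in WT and 42.7% ± 0.7 in KO. The differences KO minus WT over the 7 genes were -1.09 to 1.17 percentage points, with exact permutation p-values of 0.2 to 1, in a design of 3 against 3 libraries that cannot go below 0.1. A difference of genotype in the shares was thus not detectable here, and its absence is not shown.

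Summed troponin T came closer to troponin C and, in the mean, to troponin I. Summed over its genes and per kilobase, troponin T was 5.24 ± 2.18 times troponin C in Prol (SD, n = 6 libraries), with a range of 2.53 to 7.54, and 0.947 ± 0.141 times troponin C on day 2, with a range of 0.797 to 1.2. The ranges did not overlap. Troponin T over troponin I was 2.16 to 12.2 in Prol and 0.997 to 2.28 on day 2 (with *Tnni3* counted, 1.81 to 10.4 and 0.994 to 2.27). These ranges overlapped, with means of 5.76 in Prol and 1.46 on day 2 without *Tnni3*, and the ratios were not tested. At D0 this ratio was 1.37 to 6.84. Troponin C over troponin I had a mean of 1.1 in Prol, from 0.477 to 1.66, and of 1.51 on day 2, from 1.25 to 1.92, and so did not come closer to an equal level. In T over I the replicates numbered 1 stood out on day 2, with ratios of T over I of 1.93 in WT and 2.28 in KO, against 0.997 to 1.21 in the other 4 libraries. These are mRNA ratios and depend on the transcript length taken for each gene.

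**Figure D4:**
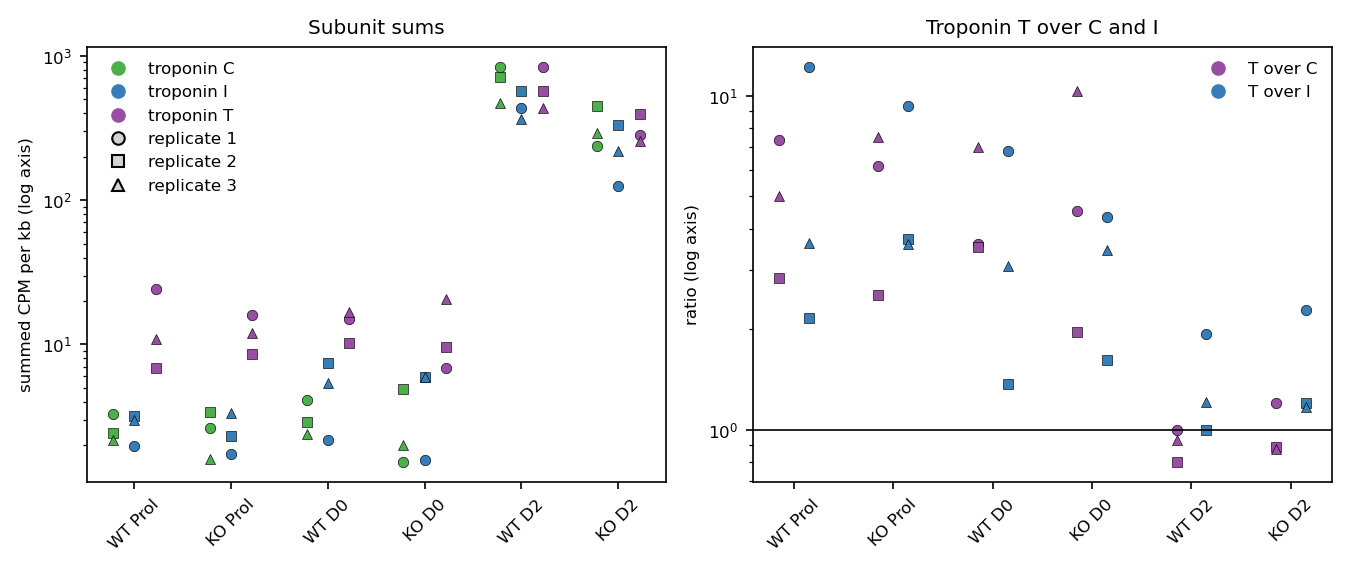
Left, summed level of the genes of troponin C, I and T in CPM per kilobase (log axis) in each library. Right, ratio of summed troponin T over C and over I (log axis), which lies at 1.37 to 12.2 before day 2 and at 0.797 to 2.28 on day 2.

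The comparison the study centred on was KO against WT on day 2. All 7 troponin genes were lower in KO, by a similar factor, and 1 of them, *Tnnc1*, met the criteria for a call. Its fitted KO/WT ratio was 0.483 (log2 -1.05, SE 0.39, limma unadjusted p = 0.0160, adjusted p = 0.9998). The fitted log2 values of the others were -1.12 for *Tnni1* (SE 0.54), -1.07 for *Tnnc2* (SE 0.76), -1.06 for *Tnni2* (SE 0.83), -0.99 for *Tnnt2* (SE 0.50), -0.95 for *Tnnt1* (SE 0.58) and -0.91 for *Tnnt3* (SE 0.83), with unadjusted p-values from limma of 0.0553 to 0.290. Their 95% intervals included no change, and that of *Tnnt3*, for example, ran from a ratio of 0.157 to 1.81. The fit uses 1 spread per gene over all 18 libraries, so these intervals and p-values also hold the scatter before day 2. They do not measure the spread on day 2 alone. With voom weights the SE was 0.37 for *Tnnc2*, 0.39 for *Tnni2* and 0.48 for *Tnnt3*, whereas that of *Tnnt2* stayed at 0.49. No gene of the 17672 had an adjusted p under 0.05 in this comparison, and 0.255% were called lower.

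The libraries of the 2 genotypes did not overlap on day 2 for any of the 7 genes, as for 3.81% of all tested genes, with KO below WT. The gap was small, since the lowest WT library exceeded the highest KO library by a factor of 1.05 (*Tnnc1* and *Tnnt3*) to 1.23 (*Tnnt1*). Comparing libraries of the same number, KO was below WT in all 21 ratios of 7 genes and 3 pairs, and 17.5% of all tested genes were lower in every pair. In the pair numbered 1 the ratios were 0.248 to 0.355, whereas they were 0.562 to 0.770 in the pair numbered 2 and 0.569 to 0.626 in the pair numbered 3. The libraries numbered 1 thus gave the largest difference for every gene. In KO D2 that library was the lowest of the 3 for 5 of 7 genes, and in WT D2 it was the highest for 5 of 7.

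**Figure D5:**
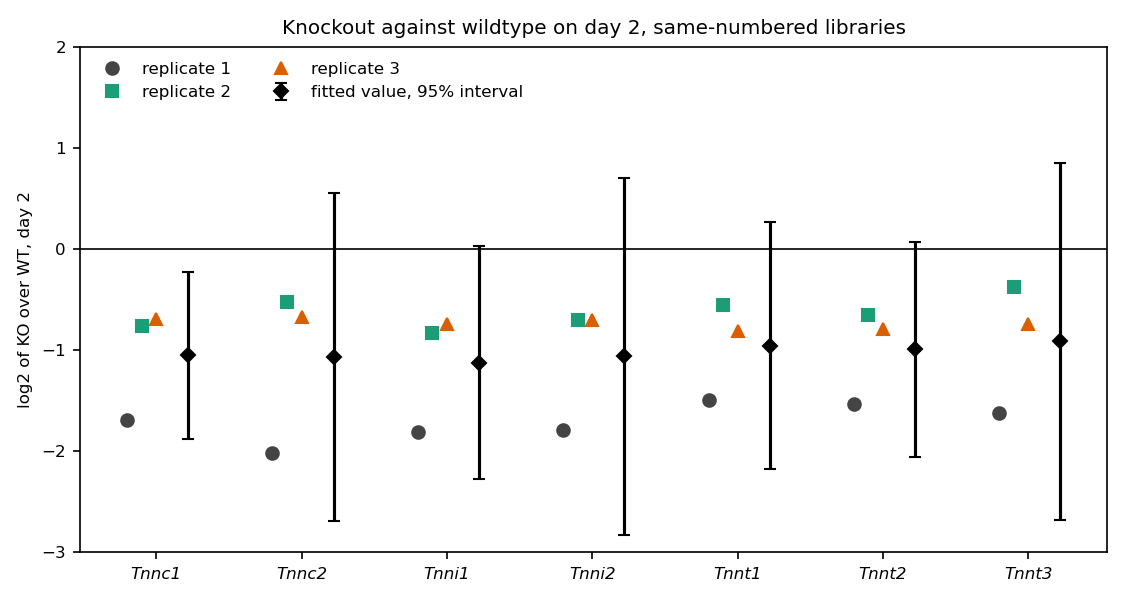
Log2 ratio of KO over WT on day 2 for each troponin gene, for the same-numbered libraries (coloured markers) and as fitted by limma with its 95% interval (black). All 21 ratios lie below 0, the pair numbered 1 lies lowest for each gene, and the interval of *Tnnc1* alone stays below 0.

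The number of troponin genes called on day 2 depended on the fit. With the 2 day 2 groups fitted alone all 7 genes were called lower, as against 0.900% of all tested genes called in either direction. With voom weights 5 genes were called (0.973% of all genes), with the replicate number as a fixed block 2 (*Tnnc1* and *Tnni1*, 1.21%), and with voom weights, a random replicate block and all listed genes 7 (1.53%). The smallest adjusted p of any troponin gene over these fits was 0.192. Without the WT library numbered 1, without the WT library numbered 2 or without the KO library numbered 1, no troponin gene was called (1.8%, 0.373% and 0.351% of all tested genes). Without both libraries numbered 1, a fit chosen after seeing the data, the log2 values were -0.78 to -0.56 with 0 troponin genes called (0.34% of all tested genes).

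For KO against WT before day 2, *Tnnt2* was again the one gene that reached 10 CPM and could be called. By limma, 0 of 7 genes were called in Prol or at D0, beside 0.113% and 0.209% of all tested genes in either direction, and 0 had an unadjusted p under 0.05. Without the minimum of 10 CPM also 0 were called (1.08% and 1.43% of all tested genes), and with voom weights the smallest unadjusted p was 0.534 in Prol and 0.216 at D0. Of the 21 same-numbered ratios, 12 were below 1 in Prol (0.282 to 2.13) and 13 at D0 (0.141 to 3.91). Whether the rise to day 2 differed between genotypes was tested directly as the KO effect on day 2 minus that in Prol. It was negative for all 7 genes, from -0.52 (*Tnnt1*, SE 0.82) to -1.55 (*Tnni2*, SE 1.18) on the log2 scale, 0 of 7 were called (0.232% of all genes in either direction), and the smallest unadjusted p was 0.0831 (limma, *Tnnc1*). With the fixed replicate block *Tnnc1* was called (0.702% of all genes in either direction). With 1 CPM added 4 genes were called (*Tnnc1*, *Tnnc2*, *Tnni2* and *Tnnt1*, beside 0.543% of all genes).

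The other genes of the thin filament did not all rise. Of 17 tested, 9 were called higher in WT D2/Prol and 2 lower, and in KO 7 were called higher and 2 lower. Of all tested genes, 10.8% and 11.3% were called higher and 12.8% and 13.7% lower. By direction alone, 13 of the 17 were higher in each genotype. The skeletal and cardiac actins *Acta1* and *Actc1* reached 1135 ± 492 and 839 ± 490 CPM in WT D2 from 2.51 and 0.77 CPM in Prol, and the filament ruler nebulin (*Neb*) reached 76.0 ± 54.5 CPM. *Tmod1*, *Lmod2* and *Lmod3*, which bind filament ends, and *Klhl40* and *Klhl41*, which stabilise thin filament proteins, rose in WT as well. They also rose in KO, but *Tmod1* (log2 change 5.01) and *Lmod2* (7.86) did not reach 10 CPM there and were not called. Of the tropomyosins, to which troponin T binds, *Tpm2* rose by 2.18 on the log2 scale, *Tpm3* fell by 1.18 and *Tpm4* fell by 0.63 (adjusted p = 0.0821), whereas *Tpm1* had a value of 0.06. In KO/WT D2, 1 of 17 was called lower, beside 0.255% of all tested genes, *Tpm2* with -0.68 (unadjusted p = 0.00882, adjusted p = 0.9998). The median over the list was -0.33, beside -0.01 for all tested genes. Of the genes that rose in WT, *Actc1* had a KO/WT D2 value of -1.095, *Lmod2* of -1.05, *Acta1* of -0.99, *Tmod1* of -0.95, *Lmod3* of -0.83 and *Neb* of -0.26, none of them called.

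Partner genes of fast and of slow fibres were counted in the same way, and the lists were not tested against each other. Of 9 fast partners tested, 5 were called higher in WT D2/Prol and in KO (*Myh1*, *Myl1*, *Mylpf*, *Atp2a1* and *Actn3*), where 10.8% and 11.3% of all tested genes were called higher, and the other 4 did not reach 10 CPM. The fast myosin light chain *Mylpf* was at 828 ± 204 CPM in WT D2 and 443 ± 214 CPM in KO D2. Of 6 slow partners tested, 3 rose in both genotypes (*Myh7*, *Casq2* and *Mybpc1*), and the summed level of *Tpm3* fell. *Atp2a2* had a value of -0.08 in WT, and *Myl2* did not reach the criteria. *Tpm3* and *Atp2a2* were already at 704 and 483 CPM in WT Prol. Their values sum all transcripts of the gene, so forms particular to slow fibres cannot be read from them. The slow myosin *Myh7* was at 30.3 ± 24.5 CPM in WT D2 and 11.8 ± 1.5 CPM in KO D2. In KO/WT D2, 0 of the 9 and 0 of the 6 were called by limma, beside 0.255% of all tested genes called lower, with 1 fast gene (*Myh2*, under 10 CPM, unadjusted p = 0.0231) and 0 slow genes at an unadjusted p under 0.05, and the medians were -0.85 and -0.91.

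Regulators of muscle genes from a chosen list were read as well, and their action on troponin promoters was not tested. Of 12 tested, 6 were called higher in WT D2/Prol and 6 in KO, where 10.8% and 11.3% of all tested genes were called higher. *Myod1*, *Myog*, *Mef2a*, *Mef2c* and *Tead4* were among them in both genotypes. By direction alone, 9 of the 12 were higher and 3 lower in each genotype, with 0 called lower, so the regulators did not all rise. Myogenin (*Myog*), which drives terminal differentiation, went from 0.78 CPM in WT Prol to 393 ± 136 CPM in WT D2 and reached 198 ± 44 CPM in KO D2. In KO/WT D2, 2 of 12 regulators were called lower, beside 0.255% of all tested genes. They were *Mef2c* (84.4 ± 28.7 CPM in WT and 46.4 ± 5.0 CPM in KO, unadjusted p = 0.0327) and *Tead4* (54.2 ± 20.3 and 29.8 ± 4.6 CPM, unadjusted p = 0.0377), both with an adjusted p of 0.9998.

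The genes lying between troponin genes did not all move with them. *Lad1*, between *Tnni1* and *Tnnt2*, stayed at 0.05 to 0.64 CPM in the 18 libraries. *Lsp1*, between *Tnni2* and *Tnnt3*, was at 25.8 ± 4.2 CPM in WT Prol and 91.5 ± 8.0 CPM in WT D2, and at 23.5 ± 5.7 and 65.2 ± 12.8 CPM in KO. The pairs of a locus kept no common level either, as *Tnnt2* was at 6.33 to 24.2 CPM before day 2 and its neighbour *Tnni1* at 1.57 to 7.26 CPM.

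Genes with the pattern most like that of the troponins were sought among 10752 genes with at least 10 CPM in 1 library, by Pearson's r of log2 CPM over the 18 libraries with the mean of the 7 genes. They were the myosin light chains *Myl4* (r = 0.997) and *Mylpf* (0.994), the muscle creatine kinase *Ckm* (0.993), the M-band gene *Myom2* (0.993) and *Stac3* (0.992), a component of excitation-contraction coupling. The nearest gene of a single troponin was *Myl4* for *Tnnc1*, *Mylpf* for *Tnnc2*, *Cd63* for *Tnni1* (0.988), *Trim55* for *Tnni2*, *Rbm24* for *Tnnt1*, *Cobl* for *Tnnt2* (0.976) and *Synpo2l* for *Tnnt3*. Of these, *Cd63* had a KO/WT D2 value of 0.03 on the log2 scale, whereas *Myl4* had -1.01 and *Mylpf* -0.99, none of them called. *Ckm* was called lower, with -1.11 (limma, unadjusted p = 0.0337, adjusted p = 0.9998), and its KO effect on day 2 minus that in Prol was called as well, with -1.54 (unadjusted p = 0.0373). These correlations cover the step from 12 libraries before day 2 to 6 on day 2. Within the 6 day 2 libraries, *Tnni1* and *Tnni2* had r = 0.998 and *Tnnt2* and *Tnnt3* had r = 0.988, whereas *Tnni2* and *Tnnt3* had r = 0.758.

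Markers of other cells were read beside these results. Of 9 cardiomyocyte markers 4 were listed, with a summed level of 0.61 to 4.07 CPM before day 2 and 5.82 to 16.8 CPM on day 2. *Myh6*, the cardiac myosin, was at 3 or fewer counts in each Prol library and at 6.11 ± 4.59 CPM in WT D2 and 2.47 ± 0.47 CPM in KO D2, and was called higher in WT D2/Prol (log2 change 7.46, limma adjusted p = 2.14e-05). Of 5 fibroblast markers 4 were listed, and their sum, mostly *Col1a1*, was 289 to 4139 CPM before day 2. On day 2 it was 12460, 1918 and 2485 CPM in WT and 13760, 4047 and 3312 CPM in KO, highest in the libraries numbered 1 of both genotypes. *Dcn* rose from 0.85 CPM or less before day 2 to 30.1 to 63.8 CPM. Of 5 smooth muscle markers 4 were listed, with a sum, mostly *Acta2*, of 234 to 532 CPM before day 2 and 561 to 1535 CPM on day 2. They did not all rise, as the log2 change from Prol to day 2 in WT and KO was -1.65 and -1.92 for *Cnn1* and -0.16 and -0.17 for *Smtn*. It was 1.73 and 1.19 for *Acta2* and 1.75 and 1.94 for *Lmod1*. Endothelial markers (2 of 3 listed) were at 1.05 to 2.29 CPM and immune markers (1 of 3 listed) at 0.908 to 3.22 CPM in the 18 libraries. Their part in the troponin values was not tested.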

How the data were processed

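Per the study's methods, the authors sequenced poly(A) RNA as stranded single reads, mapped them to the GRCm38 transcriptome, estimated expected counts with RSEM and scaled them with TMM factors. The deposited values are CPM in a table per library, computed by the authors as the expected count plus 0.5 over the scaled library total. Expected counts were recovered from them. As many were not whole (37.5% to 49.8% of those under 20 were), no count model was used.

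A gene was tested if its expected count exceeded 5 in each library of at least 1 group. The resulting 17672 genes were fitted with limma 3.58.1 in R 4.3.3 (variance trend, 6 groups as 1 factor, all 18 libraries) on log2 of the deposited CPM, with Benjamini-Hochberg adjustment over all of them. The sequencing lane, a batch in the study's model, is not in the labels. Shares were compared with exact permutation tests. The fit was tested on simulated data. Transcript lengths and positions are from GENCODE M21, promoters from RefSeq. All 7 genes, *Tnni3*, listed partner genes, neighbours of the loci and the genes of most similar pattern were named. The result of 1 listed gene is not reported here. Members and lists were chosen with earlier results of these data known. Same-numbered libraries deviated together in KO/WT D2 (correlations across genes of 0.645, 0.367 and 0.276) and in all other comparisons except WT D2/Prol and WT D2/D0 (0.0393 and 0.0100 for replicate 3). The pairing comes from these correlations, not from the labels. Alternatives were other weights, scalings, filters, thresholds, blocks and lengths, and each library left out in turn. Depth limits the low values, since 3 counts are 0.0759 to 0.138 CPM, and this covers counting error only.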

Additional observations from a re-analysis of the deposited data

How the results depend on the processing

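All 7 troponin genes were called higher on day 2 against Prol and against D0, in WT and in KO, under every alternative run, with each library left out in turn (7 in each case), and, in a fit chosen after seeing the data, without both day 2 libraries numbered 1 against Prol (7). Of the genes fitted, these settings called from 6.72% (WT D2/D0, log2 fold change over 1.5) to 37.8% (KO D2/Prol, no minimum of CPM) in either direction. For D0/Prol and for KO/WT in Prol and at D0, 0 were called under all alternatives, but 6 of the 7 genes lay under 10 CPM there, so this says nothing of stability. The smallest unadjusted p of limma fell to 0.0096 for KO D0/Prol without KO Prol replicate 2, to 0.027 for WT D0/Prol without WT D0 replicate 1 and to 0.0165 for KO/WT D0 without KO D0 replicate 2, with adjusted p-values of 0.859 or higher. For KO/WT D2, 1 troponin gene was called, beside 0.464% of all tested genes in either direction. The share of all genes is given in brackets for the alternatives. Called were 5 with voom weights (0.973%), 5 with a pseudocount of 1 CPM (0.968%) and 2 with the fixed replicate block (1.21%). With voom weights and the random replicate block over all genes 7 were called (1.53%), and with only the groups compared 7 (0.9%). By adjusted p 0 were called (0%), and with a log2 fold change over 1.5 also 0 (0.0736%). Without both day 2 libraries numbered 1, 0 were called (0.34%), and with each library left out 0 to 2 (0.351% to 1.8%). The log2 values stayed negative throughout, from -1.45 to -0.56. For the KO effect on day 2 minus that in Prol, 0 were called, beside 0.232% of all tested genes. With a pseudocount of 1 CPM 4 were called (0.543%), with the fixed replicate block 1 (0.702%) and with the random replicate block 1 (0.543%). With only the groups compared 1 was called (0.328%), and with each library left out 0 to 1 (0.164% to 0.566%), where the value of *Tnnt1* ranged from -0.93 to 0.17. Causes were not tested. The pairing block changed no other call. The changes of share to day 2 kept direction and an exact p under 0.05 under every alternative, except that *Tnni1* against D0 (-12.1 percentage points) did not pass with *Tnni3* in troponin I. The KO minus WT differences of share on day 2 changed sign when a library was left out for *Tnnc1* (-1.76 to 2.56 percentage points), *Tnnc2* (-2.56 to 1.76) and *Tnnt1* (-1.22 to 0.88). Levels before day 2 are limited by depth, and day 2 differences by the 3 libraries a group.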
